A study of Mus musculus with 6 samples.

Results

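The 9 genes of blood coagulation and fibrinolysis F3, F5, F7, F10, F13a1, Plau, Plaur, Plat and Serpinb2 were followed in macrophage cultures of wild-type (WT) mice and of mice lacking the transcriptional repressor Bach1 (KO). They were chosen by name, and the 14 array probes whose transcript accession belongs to them are all described. They are 9 of the 20018 genes that could be named on the array. The cells were grown from the bone marrow of C57BL/6 mice aged 11 weeks, for 5 days with GM-CSF (a growth factor for granulocytes and macrophages) at 10 ng/mL and fetal bovine serum at 10%, and each of 3 WT and 3 Bach1 KO mice gave 1 array. Both genotypes had 2 male mice and 1 female mouse (WT 3 and KO 949), and the mice are called by the numbers in their labels. The sources used here do not say how Bach1 was deleted. The first slide held all WT arrays with KO 947, and the second held KO 948 and 949. A fit that blocks on the slide therefore rests on KO 947 alone.

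Macrophages carry part of the clotting system themselves. Tissue factor (F3) on the cell surface binds factor VII (F7), the complex activates factor X (F10), and factor X with its cofactor factor V (F5) turns prothrombin into thrombin, which makes fibrin that the factor XIII A subunit (F13a1) cross-links. Fibrin is removed by plasmin, which urokinase (Plau), held at the cell surface by its receptor (Plaur), and tissue-type plasminogen activator (Plat) release from plasminogen, and which plasminogen activator inhibitor type 2 (Serpinb2) holds back by blocking urokinase. Monocytes and macrophages are known sources of F3, F13a1, Plau, Plaur and Serpinb2, whereas the liver makes most of the circulating clotting factors.

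All 7 macrophage markers that could be named (Cd68 had no named probe) were well above background on all 6 arrays, with a summed level of 324 to 364 times the array's 75th percentile in WT and 343 to 378 in KO. Of the spots, 70.3% to 73.2% on WT and 62.5% to 65.1% on KO arrays were well above background. A level below is a log2 signal minus the log2 75th percentile of its array, and a difference is KO minus WT with the standard error (SE) of the limma fit over 15736 genes. In that fit 8 of the 9 genes were tested, each well above background on all 6 arrays. Plat did not pass the filter on dim probes. With 3 arrays per genotype, the number of arrays limits the precision. Levels of different probes are not comparable.

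F5 and Plau rose in KO cultures, 3.00-fold and 2.39-fold. These were 2 of the 8 tested genes (both called higher), beside 3.41% of all genes called in either direction, 1.14% called higher and 2.27% called lower. In 4 genes, F5, F7, Plau and Serpinb2, every KO array read higher than every WT array, as in 13.4% of all genes. In none of the 8 did every KO array read lower (13.5% of all genes). Plat, not among the 8, read lower on every KO array but was well above background on WT 1 alone. An unadjusted p under 0.05 was found in 5 of the 8 (F3, F5, F7, Plau, Serpinb2) and in 20.4% of all genes. The 8 genes had a median difference of 0.70 beside -0.01 for all genes, with 6 of 8 higher beside 49.2% of all genes. The genes had been picked with earlier results of these arrays known, so these counts are a description.

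**Figure D1:**
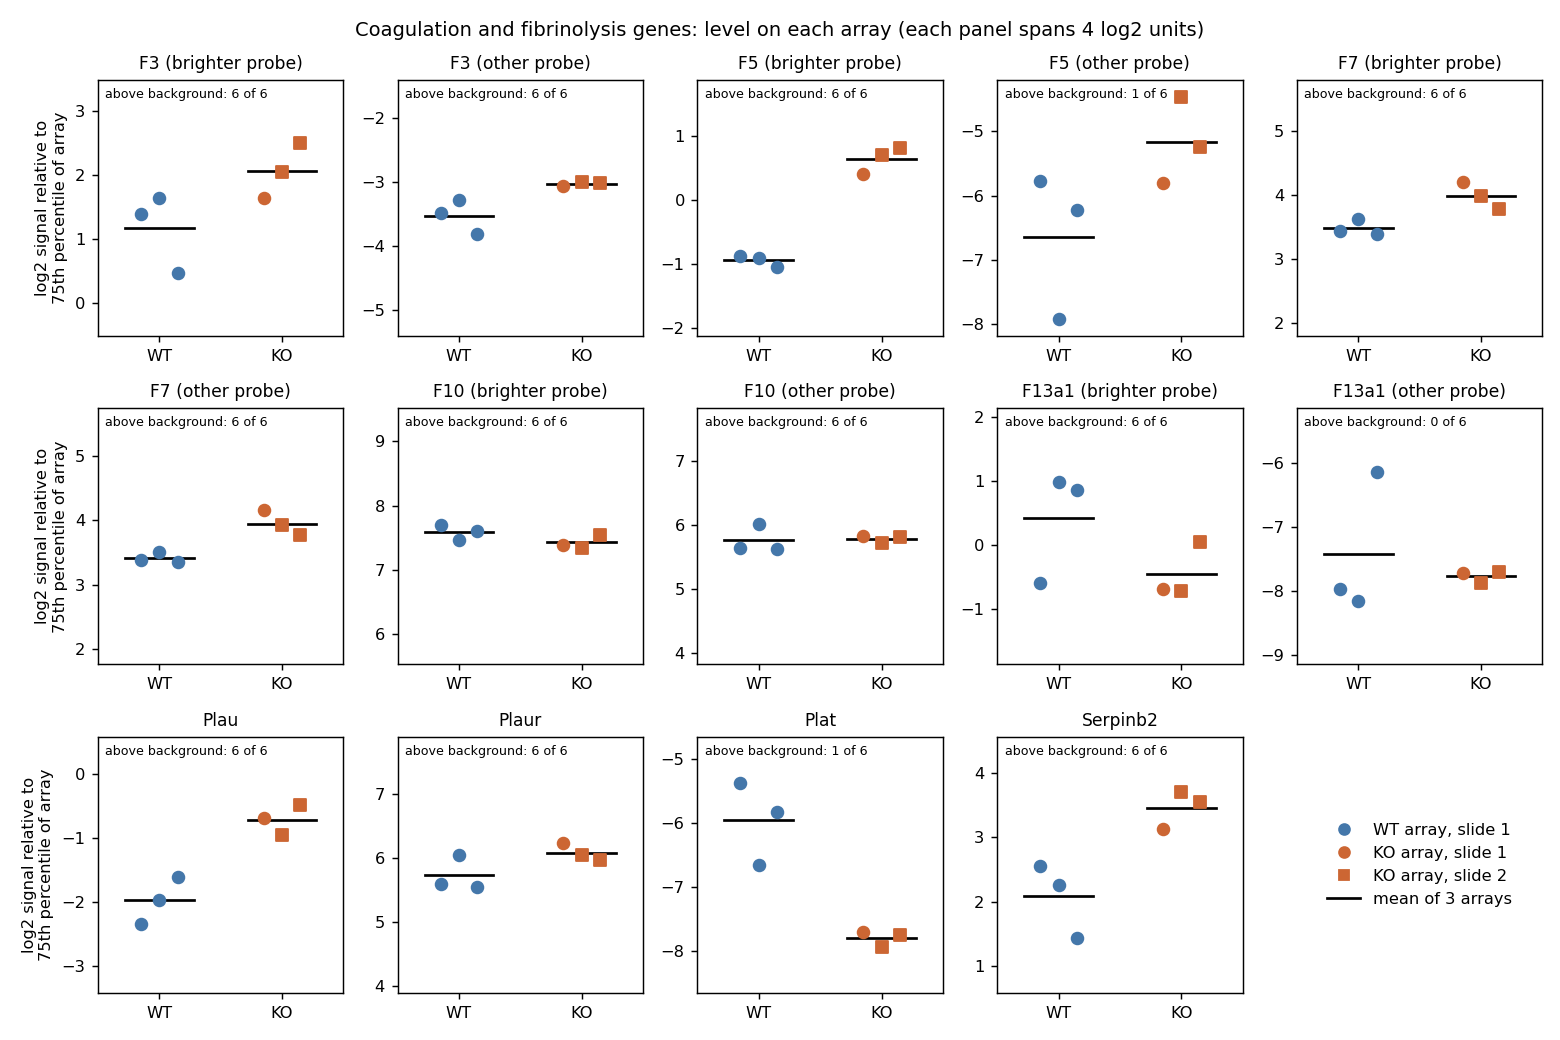
Level (log2 signal minus the log2 75th percentile of its array) for all 14 probes of the 9 genes, 1 point per array (circles: slide 1, squares: slide 2) with the mean of 3 arrays as a bar; each panel spans 4 log2 units and gives the number of arrays well above background. The KO points of the brighter F5 probe, both F7 probes, the dimmer F3 probe, Plau and Serpinb2 lie above all WT points, and those of F10 and F13a1 overlap them.

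Upstream sequence is shown for the gene with the lowest p (F5). It is also shown for the 3 genes whose promoter window matched the AP-1 pattern searched here. AP-1 factors, and heterodimers of Bach1 with small Maf proteins, are known to bind sites built on such a core with C or G as its middle letter. RefSeq promoter windows (GRCm38.p6) were found for 7 of the 9 genes, and none for Plau and Plat. The 250 bases before the start were searched on both strands for the AP-1 core TGANTCA and for the antioxidant response element core TGACNNNGC. The AP-1 core stood in 4 of 9 windows of these genes (F3, Plaur and both overlapping windows of Serpinb2, which share 1 match) and in 6.75% of 32851 windows in all. The antioxidant response element core stood in none of the 9 and in 10.2% of all windows. The AP-1 core reads the same on both strands and does not overlap the other motif here. Capitals mark the matches, which lie 146 to 140 and 135 to 129 bases before the start of F3, 69 to 63 before Plaur and 94 to 88 before the first start of Serpinb2. The search took any middle letter. It is G in the second F3 match and C in the Plaur match. In the first F3 match and the Serpinb2 match it is A, so these lack the C or G named above. A match is a description of the letters and no test of binding.
F3, chr3:121723287-121723536, plus strand: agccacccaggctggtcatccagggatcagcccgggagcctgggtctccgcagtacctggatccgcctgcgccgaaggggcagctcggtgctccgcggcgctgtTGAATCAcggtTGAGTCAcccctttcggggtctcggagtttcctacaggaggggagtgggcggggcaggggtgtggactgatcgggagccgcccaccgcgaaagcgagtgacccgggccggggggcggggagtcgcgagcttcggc
Plaur, chr7:24462233-24462482, plus strand: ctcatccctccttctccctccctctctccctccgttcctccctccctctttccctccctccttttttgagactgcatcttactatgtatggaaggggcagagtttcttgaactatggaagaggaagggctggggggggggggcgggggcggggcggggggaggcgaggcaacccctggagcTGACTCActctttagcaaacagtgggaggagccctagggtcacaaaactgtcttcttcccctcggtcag
Serpinb2, chr1:107511173-107511422, plus strand: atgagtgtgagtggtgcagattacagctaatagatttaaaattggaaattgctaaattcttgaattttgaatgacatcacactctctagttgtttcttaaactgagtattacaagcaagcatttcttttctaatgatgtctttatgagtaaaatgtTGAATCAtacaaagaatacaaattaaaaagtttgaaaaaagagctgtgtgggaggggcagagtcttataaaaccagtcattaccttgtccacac
F5, chr1:164151585-164151834, plus strand, no match: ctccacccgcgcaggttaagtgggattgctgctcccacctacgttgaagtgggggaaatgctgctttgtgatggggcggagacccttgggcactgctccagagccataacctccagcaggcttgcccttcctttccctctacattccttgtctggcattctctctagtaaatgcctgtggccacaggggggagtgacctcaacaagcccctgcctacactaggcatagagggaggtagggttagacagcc

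Among the initiators of clotting, F3 was higher on average in KO without passing the test. Its brighter probe read 1.39, 1.64 and 0.47 on WT 1, 2 and 3 and 1.64, 2.05 and 2.50 on KO 947, 948 and 949. KO 947 lay just below WT 2, so the groups touched, and WT 3 was the lowest array. The difference was 0.89 ± 0.36 (SE, n = 3 per genotype; limma unadjusted p = 0.0420, adjusted p = 0.224). A dimmer F3 probe read -3.49, -3.28 and -3.81 in WT and -3.06, -2.99 and -3.02 in KO, where the groups did not overlap. Its difference was smaller, 0.50 ± 0.19 (limma adjusted p = 0.231 over all probes). With the slide as a block the 2 probes differed by 0.47 and 0.46 (limma adjusted p = 0.647 for the brighter probe). Without WT 3 the brighter probe differed by 0.55, and on male arrays alone by 0.32.

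F7, the partner of tissue factor, was higher on all KO arrays. The brighter of its probes read 3.44, 3.63 and 3.39 in WT and 4.20, 3.98 and 3.78 in KO. The second probe read 3.38, 3.51 and 3.35 in WT and 4.16, 3.92 and 3.77 in KO, so both probes put KO 947 highest and left a gap between the genotypes, of 0.16 and 0.26. The difference of the brighter probe was 0.50 ± 0.17, or 1.42-fold (limma unadjusted p = 0.0202, adjusted p = 0.156), and that of the second probe was 0.54. With the slide as a block the difference was 0.71 (limma adjusted p = 0.171).

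F10, which lies next to F7 on its chromosome, showed no such shift. Its brighter probe read 7.69, 7.46 and 7.60 in WT and 7.38, 7.34 and 7.54 in KO, a difference of -0.16 ± 0.14 (limma adjusted p = 0.574). The second probe read 5.64, 6.01 and 5.63 in WT and 5.82, 5.72 and 5.81 in KO, a difference of 0.02 (limma adjusted p = 0.966 over all probes). The genotypes overlapped on both probes, and the 95% confidence interval of the brighter probe ran from -0.51 to 0.18. Its sign turned under scaling to the array median (0.05), where the median difference of all genes was 0.21.

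F5, the cofactor of factor X, had the clearest rise of the 9 genes. It read -0.88, -0.90 and -1.05 on WT 1, 2 and 3 and 0.41, 0.71 and 0.80 on KO 947, 948 and 949. The WT arrays lay close together (SD 0.09), and the lowest KO array lay 1.28 above the highest WT array. The difference was 1.58 ± 0.16 (SE, n = 3 per genotype; limma adjusted p = 0.0103), with a 95% confidence interval of 1.20 to 1.97. F5 passed the test in 17 of 20 alternatives run on the scanner files. The call was lost when blocked on slide (1.35, limma adjusted p = 0.0528), on the slide that holds both genotypes (adjusted p = 0.0909) and on male arrays alone (1.45, adjusted p = 0.0658). A second F5 probe was well above background on KO 948 alone (-4.46) and on no WT array, its groups overlapped, and no fold is given for it.

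F5 is known as a transcript of large peritoneal macrophages and of megakaryocytes, whose markers were measured too. Of 5 tested markers of large peritoneal macrophages, Icam2 rose (0.95 ± 0.18, limma adjusted p = 0.0442), Gata6, which defines them, fell (at least 2.26-fold lower, on no KO array well above background, adjusted p = 0.0243) and 3 did not pass. The median difference of the 5 was -0.20, with 2 higher and 3 lower. Their summed level was 7.23 to 8.65 times the 75th percentile in WT and 15.4 to 19.1 in KO, a sum set mostly by the bright probes of Icam2 and Lrg1 (1.15, limma adjusted p = 0.0872). None of 6 tested megakaryocyte and platelet markers passed, and their summed level overlapped, at 146 to 214 in WT and 175 to 211 in KO. Markers of other cells moved with the genotype on the arrays where F5 and Plau rose. Of 10 tested dendritic cell markers, 4 were called lower, and their summed level was 186 to 209 in WT and 134 to 149 in KO. Of 9 tested granulocyte markers, 1 was called lower (167 to 205 in WT and 97.5 to 117 in KO). Of 10 tested eosinophil, mast cell and basophil markers, 3 were called lower (22.4 to 52.3 in WT and 1.43 to 18.8 in KO), as were 2 of 4 smooth muscle markers (7.63 to 24.2 in WT and 4.09 to 5.15 in KO). Stromal markers were lower too, with values given beside Plat. The part of any of these cells in the F5 and Plau results was not tested. In these bulk cultures, fewer or more cells of a type and a change of RNA per cell cannot be told apart.

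F13a1, which cross-links fibrin, varied more among WT arrays than between the genotypes. It read -0.59, 0.98 and 0.86 in WT and -0.69, -0.71 and 0.05 in KO. WT 1 lay with the KO arrays, and WT 2 and 3 lay above all of them. The difference was -0.87 ± 0.45 (limma adjusted p = 0.337), -1.37 without WT 1 (adjusted p = 0.124) and -0.58 without WT 2 (adjusted p = 0.584). A second F13a1 probe was not well above background on any array. The monocyte markers Ccr2 and Chil3 did not pass.

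**Figure D2:**
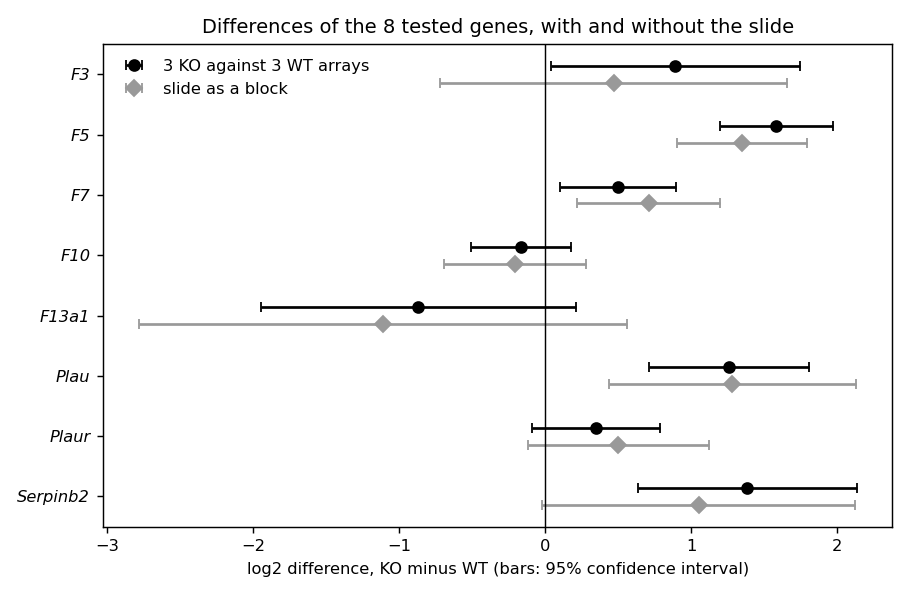
Log2 difference KO minus WT with its 95% confidence interval for the 8 tested genes, from 3 KO against 3 WT arrays (black) and when blocked on slide (grey). The interval of F5 lies farthest from 0, at 1.20 to 1.97, and those of F10, F13a1 and Plaur include 0 in both fits.

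On the side of fibrinolysis, Plau rose. It read -2.35, -1.97 and -1.61 on WT 1, 2 and 3 and -0.70, -0.96 and -0.50 on KO 947, 948 and 949. The genotypes were apart by 0.65. The difference was 1.26 ± 0.23 (SE, n = 3 per genotype; limma adjusted p = 0.0423), with a 95% confidence interval of 0.71 to 1.81. The size was steady, at 1.07 to 1.48 over the alternatives, but the call was close to the threshold. It was lost when blocked on slide (1.28, limma adjusted p = 0.158), on male arrays alone (adjusted p = 0.104) and without WT 1, WT 2, KO 947, KO 948 or KO 949 (adjusted p = 0.120, 0.117, 0.0574, 0.0944 and 0.119), but kept without WT 3.

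Plaur, the urokinase receptor, read 5.60, 6.05 and 5.56 in WT and 6.24, 6.05 and 5.97 in KO. WT 2 lay among the KO arrays and the other 2 WT arrays below them. The difference of 0.35 ± 0.18 did not pass (limma adjusted p = 0.345), and its 95% confidence interval of -0.09 to 0.79 includes changes as large as that of F7. Without WT 3 it was 0.26, and with scaling to the array median 0.57.

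Serpinb2, which blocks urokinase, was higher on all KO arrays and missed the threshold. It read 2.55, 2.26 and 1.44 in WT and 3.14, 3.71 and 3.56 in KO. WT 3 was the lowest array, as for F3, and the gap between the genotypes was 0.59. The difference was 1.38 ± 0.31, or 2.61-fold (limma unadjusted p = 0.00341, adjusted p = 0.0695). In the alternatives on the scanner files it passed with scaling to the array median (1.60, limma adjusted p = 0.0478), with the filter on all 6 arrays (adjusted p = 0.0477) and with eBayes with trend and robust (adjusted p = 0.0286), and not when blocked on slide (1.05, adjusted p = 0.282).

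Plat, the other plasminogen activator, was near or below background. It read -5.37, -6.65 and -5.82 in WT and -7.70, -7.93 and -7.74 in KO, and WT 1 was the only array on which it was well above background. The dimmest probe well above background had a level between -6.16 and -5.68, depending on the array, so every KO value lay below what the arrays resolve, and no fold is given. Without the filter on dim probes Plat did not pass (limma adjusted p = 0.0632), in a test that used these unresolved KO values. Stromal cells are known to make Plat. The summed level of 8 tested stromal markers was 5.45 to 25.0 times the 75th percentile in WT and 0.473 to 1.48 in KO, with 3 of the 8 called lower and the stromal marker Lum well above background on no array. The part of such cells in the values of Plat was not tested.

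The other genes of the pathway did not pass the test. Of 49 genes listed in 6 roles, 36 were tested, and limma called none higher and none lower. At an unadjusted p under 0.05, 2 were higher and 6 lower, and their median difference was -0.05. No other test than limma was run on them.

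Of the inhibitors of fibrinolysis, the carboxypeptidase gene Cpb2 differed by -0.37 ± 0.35 and by 0.38 when blocked on slide, so that its sign turned.

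Among 8 tested clotting factor and fibrinogen genes, 7 were lower and none passed. The factor VIII gene F8 read -3.97, -4.25 and -4.16 in WT and -4.41, -7.82 and -6.69 in KO, where KO 947 alone was well above background. Its difference of -2.18 ± 0.78 (limma adjusted p = 0.184) became -0.28 when blocked on slide and -3.13 without KO 947 (adjusted p = 0.0186). The fit without KO 947 rests on KO 948 and 949, where F8 was not well above background, so the size of -3.13 is not resolved. The fibrinogen gene Fga read -4.71, -5.03 and -4.98 in WT and -5.60, -5.69 and -6.06 in KO. It was well above background on no KO array. The difference of Fga was -0.87 ± 0.18 (limma adjusted p = 0.0572), and -0.96 without KO 947 (adjusted p = 0.0482). Without KO 947 the factor XI gene F11, named here after its values were seen, also passed (-1.06, limma adjusted p = 0.0399, against 0.112 with all arrays).

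Among 9 tested natural anticoagulants, 3 were higher and 6 lower. Thbd, which encodes thrombomodulin, read -1.27, -0.68 and -1.53 in WT and -0.80, 0.08 and 0.16 in KO, with KO 947 among the WT arrays. Its difference was 0.97 ± 0.33 (limma adjusted p = 0.164), and 0.36 when blocked on slide. Serpinc1, the antithrombin gene, differed by -1.23 ± 0.65 (adjusted p = 0.342) and was well above background on 2 WT arrays and 1 KO array.

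In the remaining roles no tested gene passed. In the vitamin K cycle and factor secretion, 4 of 5 tested genes were higher, with the secretion cofactor Mcfd2 at 0.43 ± 0.20 and the carboxylase Ggcx at -0.60 ± 0.49 (0.01 without KO 948). Of 3 tested protease-activated receptors, F2rl2 differed by -0.47 ± 0.16 and F2rl3 by 0.11 ± 0.19. Of 6 tested plasminogen receptors and partners, the urokinase clearance receptor Lrp1 differed by 0.41 ± 0.26 and Hmgb1 by -0.09 ± 0.16.

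**Figure D3:**
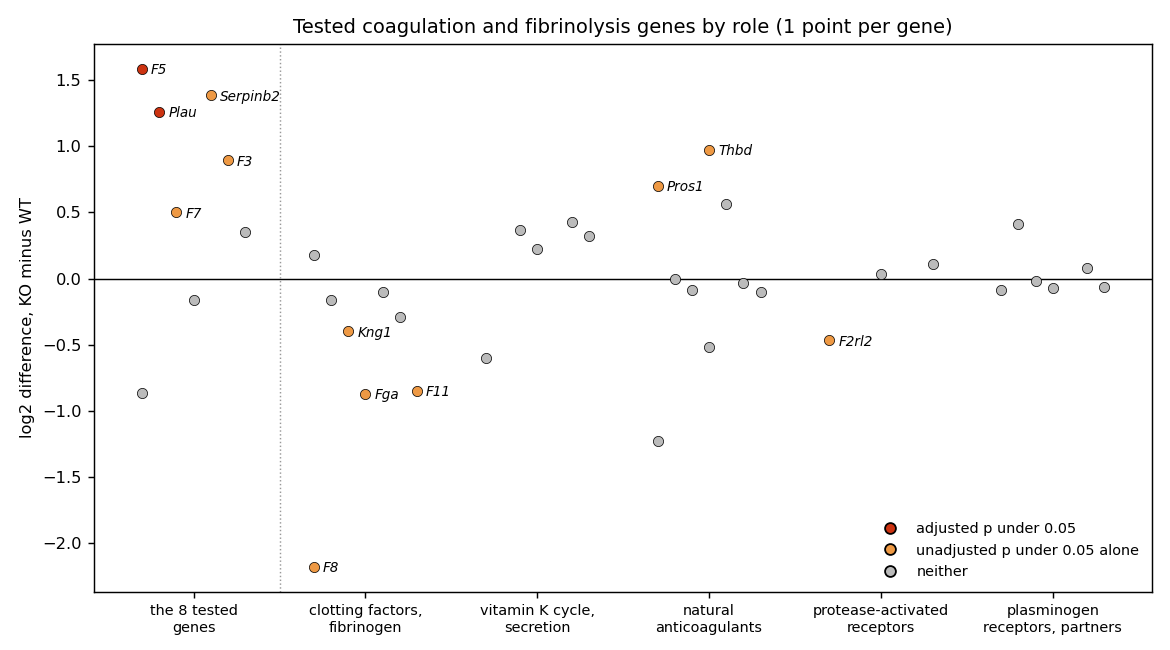
Log2 difference KO minus WT, 1 point per tested gene, for the 8 tested genes described here (left of the dotted line) and the tested pathway genes of 5 roles; colour gives the limma p. F5 and Plau are the points past an adjusted p of 0.05, and F8, at -2.18, lies lowest without passing.

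The authors' deposited table holds 1 probe each of F3, F5, F7, Plau and Serpinb2, with KO minus WT values in the authors' deposited table of 0.52, 1.60, 0.56, 1.28 and 1.40. In that table all 3215 probes separate the genotypes, so the presence of these 5 genes in the authors' deposited table is no independent evidence.

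**Figure D4:**
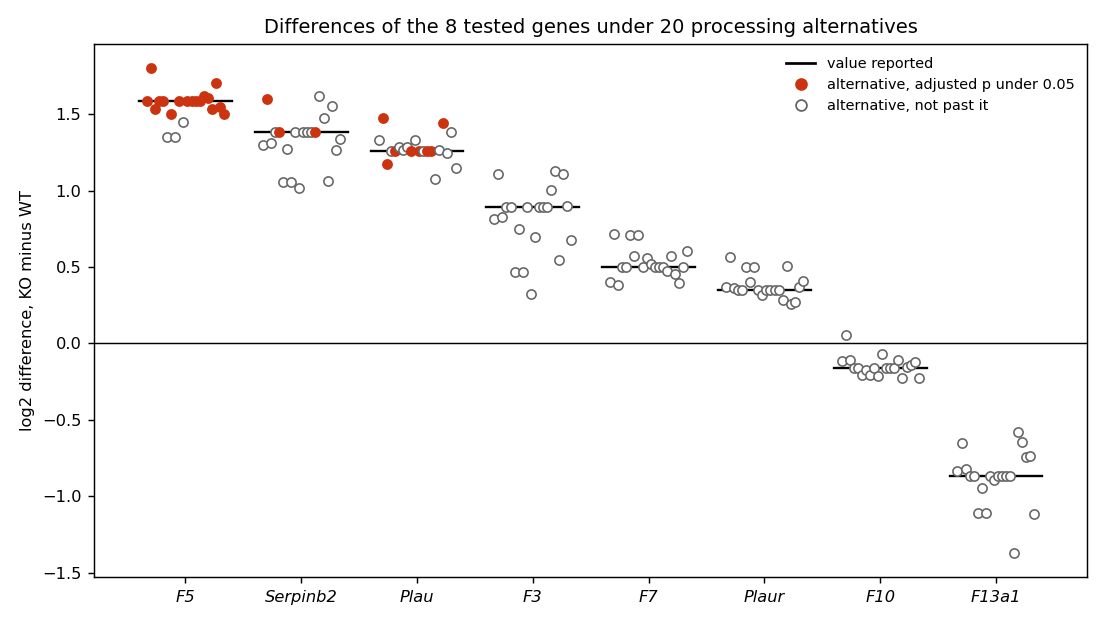
Log2 difference KO minus WT of the 8 tested genes under 20 processing alternatives on the scanner files (points, filled where the adjusted p was under 0.05) beside the value reported (bar). F5 is filled in 17 of 20, and F10 is the gene whose sign turned, in 1 alternative.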

How the data were processed

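RNA of 6 macrophage cultures, 1 per mouse, was measured on 1-colour Agilent mouse arrays. The authors' scanner files hold an intensity per spot from Feature Extraction, Agilent's image software (10.7.3.1 in the headers, but 9.1 by the submitters' processing notes). Per the file headers, background was subtracted from this intensity with spatial detrending, arrays were not scaled to each other, and probes were designed on mm9. The authors' deposited table holds log2 values of 3215 probes, each centred on its median over the arrays, with a scaling between arrays that stays unknown. The columns of WT 1, 2 and 3 have medians of 0.14, 0.11 and 0.11, and those of KO 947, 948 and 949 have -0.10, -0.13 and -0.13.

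From each log2 processed intensity the log2 75th percentile of the array was subtracted, outlier spots were dropped, and the remaining spots of a probe were averaged. Probes were named by transcript accession through RefSeq (GRCm38.p6), with 26413 of 55681 probes matched. Probes well above background on at least 3 of 6 arrays were kept and the brightest probe per gene was tested (15736 genes) with limma 3.58.1 (R 4.3.3) by a two-sided test, adjusted after Benjamini-Hochberg at a threshold of 0.05. On data simulated for KO against WT (15701 genes) the fit found 33 of the 67 genes given a 2-fold change, 55 of the 67 given a 4-fold and 60 of the 66 given an 8-fold change, and called 11 genes given none. The simulated noise was drawn for each gene on its own from its spread within the genotypes. It held no slide effect, so these counts leave the slide out. The members, gene lists, motifs and alternatives were chosen with earlier results of these data known. The rule for named genes took all members, pathway genes past the threshold and, in a role group without any, the 2 with the largest difference; some genes are not reported here. Alternatives were other scalings (quantile, array median, normexp with an offset of 50), no or a stricter filter on dim probes, a block for the slide (fixed, or random) or 1 slide alone, sex as a covariate or male arrays alone, other uses of a gene's probes, eBayes with trend and robust, keeping outlier spots, each array left out and the authors' table.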

Additional observations from a re-analysis of the deposited data

How the results depend on the processing

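All differences reported for the 8 tested genes kept their direction in every alternative run, except that of F10, which was 0.054 with scaling to the array median. The count of genes past the threshold among them was 2. It was 3 with scaling to the array median, with the filter on all 6 arrays and with eBayes with trend and robust, where Serpinb2 passed too. It was 1 with quantile normalization, with no filter on dim probes, with the slide as a random block and with every probe on its own, and 0 with the slide as a fixed block, on the slide that holds both genotypes and on male arrays alone. With each array left out it was 1 to 2. Plau was lost in 12 and F5 in 3 of the 20 alternatives on the scanner files. In the authors' table only F5, Plau and Serpinb2 were tested, and all 3 passed. All its probes separate the genotypes, so these passes add no evidence. For the other pathway genes the count was 0, and 1 on male arrays alone, and 0 to 3 with each array left out. Over all genes the count of 537 became 332 with quantile normalization, 275 with no filter, 84 with the slide as a fixed and 255 as a random block, 24 on the slide that holds both genotypes, 305 with sex as a covariate, 182 on male arrays alone, 810 with eBayes with trend and robust, 614 with scaling to the array median, and 77 to 900 with each array left out. Scaling to the array median moved the median difference of all genes to 0.21 and the share of higher calls from 180 of 537 to 384 of 614. No paired analysis was possible because the genotypes share no replicate numbers. Signal over background limits Plat and the dimmer probes of F5 and F13a1. The authors' table gave no count over all genes, since its probes were selected.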

Other observations

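The chromosomal neighbours of the 9 genes were looked at after the values of the genes were known. The 48 tested genes among the 3 nearest on each side had a median difference of 0.15. Serpinb10, the gene beside Serpinb2 in the serpin cluster, read 0.54, 0.06 and 0.73 on WT 1, 2 and 3 and 2.98, 2.39 and 2.24 on KO 947, 948 and 949. It rose by 2.09 ± 0.26 (SE, n = 3 per genotype; limma adjusted p = 0.0155) and also passed when blocked on slide (2.53, adjusted p = 0.0450). In the same cluster Serpinb3b fell (at least 1.47-fold lower, on no KO array well above background, adjusted p = 0.0358), and Serpinb8 (0.36), Serpinb3c (-0.18) and Serpinb12 (0.07) did not pass.

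Selp, the P-selectin gene on 1 side of F5, did not pass (-0.27 ± 0.21, limma adjusted p = 0.523), nor did Slc19a2 on the other side of F5 (0.81 ± 0.17, adjusted p = 0.0568). Cnn3, beside F3, differed by -2.43 ± 0.57 (adjusted p = 0.0737). The nearest genes of Plau, Camk2g and Vcl, differed by 0.13 and 0.19.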
